A study of Mus musculus with 20 samples.

Results

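The genes described here are Apln, Aplnr, Esm1, Pdgfb and Cxcr4, a set of 5 genes chosen by name as tip cell genes and the apelin axis. All 5 were found among the 55866 genes of the count table, and 4 of them had counts. Tip cells are the endothelial cells that lead a growing vessel sprout, and stalk cells follow them. Apln encodes apelin, a secreted peptide, and Aplnr encodes its G protein-coupled receptor. Esm1 encodes endocan, a secreted proteoglycan, Pdgfb encodes the PDGF-B chain through which endothelium recruits pericytes, and Cxcr4 encodes the receptor of the chemokine Cxcl12. Delta-like signaling through Notch receptors is known to restrain the tip cell state.

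Endothelial translatomes were compared between tumors treated with 6-3-A6, an antibody that blocks Notch4, and tumors treated with control mouse IgG. All mice were female RiboTagEC animals (Rpl22HA/HA x Cdh5CreERT2, C57BL/6J), in which tamoxifen-induced, Cdh5-driven Cre switches the ribosomal protein Rpl22 to a form tagged with hemagglutinin (HA), so that the tagged cells are those in which Cdh5 was active at induction and their progeny. Tamoxifen (75 mg/kg) was given on 5 days at 3 weeks of age, and cells of 1 line, the murine breast carcinoma line Py8119, were implanted in a mammary fat pad at 8 weeks. Mice then received 6-3-A6 at 25 mg/kg, or control IgG, over 10 days. The tumor volume at the first dose is given as 30 mm3 in the methods and as 50 mm3 in the design text. The homogenate (input) and the anti-HA immunoprecipitate (IP) of 5 tumors per treatment were sequenced, which gave 20 libraries.

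Total counts on genes lay between 11881214 and 26728205 per library, with a median of 16942643. For the 6-3-A6 libraries titles and free-text descriptions disagree on which fraction was sequenced, and titles were followed. Pecam1, an endothelial adhesion molecule, lay between 193 and 1541 CPM (counts scaled to the library's effective total) in libraries titled IP and between 30.0 and 71.2 CPM in libraries titled input, without overlap in either treatment group. Each of the 16 endothelial markers with counts rose in IP, by a median of 4.60 on the log2 scale. The study kept 6 of the 10 IP libraries after a principal component analysis, control IgG 2, 4 and 5 and 6-3-A6 1, 3 and 4. Endothelial content of the IP libraries differed between these kept groups. Content and treatment therefore cannot be fully told apart in the differences given for them. As RNA was taken from bulk tumor, fewer cells of a type and less RNA per cell cannot be told apart.

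The ligand gene Apln lies on the minus strand of chromosome X (GRCm39, positions 47114023 to 47123730) and no other listed gene overlaps it. Its coding sequence is shown because the active peptide is a short stretch at its end. The sequence below is that of transcript Apln-201 (GENCODE M21, GRCm38, 234 bases), and the capitals mark the last 13 codons before the stop codon, which encode apelin-13.
Apln coding sequence: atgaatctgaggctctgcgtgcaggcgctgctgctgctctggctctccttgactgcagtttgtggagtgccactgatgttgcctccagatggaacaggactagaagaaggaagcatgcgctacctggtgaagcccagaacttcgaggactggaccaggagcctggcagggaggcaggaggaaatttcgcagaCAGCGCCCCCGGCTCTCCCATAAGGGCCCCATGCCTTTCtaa

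The promoters of Apln and Cxcr4 are shown because both are textbook targets of hypoxia-inducible factors and their windows were at hand. Promoter sequences (250 bases before to 50 bases after the start, RefSeq, GRCm38.p6) were at hand for 3 of the 5 genes, Apln, Cxcr4 and Esm1. The core letters of a hypoxia response element, ACGTG and GCGTG, were searched on both strands and are in capitals where they occur. The Apln window (chrX:48034804-48035103, minus strand) holds 0 matches, and the Cxcr4 window (chr1:128592250-128592549, minus strand) holds 1 match, GCGTG at position -39. The Esm1 window, not shown, also holds 1 match, GCGTG at position -47. Of 32851 promoter windows of this length, 43.8% hold at least 1 match, so that a match is common.
Apln promoter: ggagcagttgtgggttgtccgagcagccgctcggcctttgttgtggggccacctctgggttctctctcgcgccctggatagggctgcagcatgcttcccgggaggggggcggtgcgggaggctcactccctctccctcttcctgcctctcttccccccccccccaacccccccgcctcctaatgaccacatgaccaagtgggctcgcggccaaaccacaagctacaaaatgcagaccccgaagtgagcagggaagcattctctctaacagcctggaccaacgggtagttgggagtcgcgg
Cxcr4 promoter: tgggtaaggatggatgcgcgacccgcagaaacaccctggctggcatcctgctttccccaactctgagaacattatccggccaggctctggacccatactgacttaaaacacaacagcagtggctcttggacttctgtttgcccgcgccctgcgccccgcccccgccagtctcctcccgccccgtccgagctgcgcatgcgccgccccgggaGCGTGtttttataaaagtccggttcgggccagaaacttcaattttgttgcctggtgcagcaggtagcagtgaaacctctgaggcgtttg

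Esm1 could not be measured. It lies on chromosome 13 (GRCm39, positions 113346193 to 113354632, plus strand), wholly inside the span of Gzmk (positions 113308142 to 113362442, minus strand), and its count was 0 in all 20 libraries. The reads had been counted over whole gene spans, introns included. All 12585 genes that lie wholly within another gene had a count of 0 in every library, as against 38.5% of the 30493 genes without overlap. The same held for the 6252 genes that lie only within genes of the opposite strand. A count of 0 for Esm1 was therefore not read as a level, and no limit was drawn from it. Gzmk, the gene around it, had between 1 and 30 counts per library.

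Apln was measured well in every library. In control IgG tumors 1 to 5 its IP level was 700, 464, 924, 212 and 285 CPM, and in 6-3-A6 tumors 1 to 5 it was 746, 323, 925, 804 and 298 CPM. The input levels in the same order were 40.6, 51.9, 74.2, 67.5 and 47.0 CPM under control IgG and 70.6, 69.0, 89.7, 30.3 and 29.0 CPM under 6-3-A6. Every IP library lay above every input library, whereas the treatment groups overlapped within each fraction. IP levels spanned 4.36-fold over the 10 tumors.

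Aplnr, the receptor gene (chromosome 2, positions 84966569 to 84970267, plus strand), was scarce in input and rose steeply in IP. Its input level was 4.09, 3.35, 1.00, 5.92 and 4.77 CPM in control IgG tumors 1 to 5 and 2.87, 3.05, 2.12, 2.82 and 5.60 CPM in 6-3-A6 tumors 1 to 5, which rests on 12 to 103 counts per library. Its IP level was 97.2, 88.8, 46.9, 52.1 and 70.1 CPM under control IgG and 60.6, 19.7, 44.2, 206 and 104 CPM under 6-3-A6. The fractions did not overlap, and the 6-3-A6 IP libraries held both the lowest and the highest receptor level, a 10.4-fold span against 2.07-fold under control IgG.

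Pdgfb (chromosome 15, positions 79880075 to 79899178, minus strand) also separated by fraction. Its input level was 13.7, 18.2, 16.5, 18.5 and 18.7 CPM under control IgG and 15.3, 14.5, 15.4, 4.28 and 23.4 CPM under 6-3-A6. Its IP level was 154, 101, 108, 41.1 and 58.7 CPM under control IgG and 90.3, 56.5, 102, 149 and 73.8 CPM under 6-3-A6. Other listed genes overlap 14.2% of the Pdgfb span. The highest input library, 6-3-A6 5, stayed below the lowest IP library, control IgG 4.

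Cxcr4 (chromosome 1, positions 128515936 to 128520030, minus strand) was the member whose fractions overlapped. Its input level was 57.2, 37.4, 56.9, 33.4 and 43.0 CPM under control IgG and 70.9, 28.5, 76.6, 47.5 and 45.9 CPM under 6-3-A6. Its IP level was 302, 150, 202, 67.8 and 95.8 CPM under control IgG and 166, 46.3, 168, 206 and 121 CPM under 6-3-A6. The IP libraries of control IgG 4 (67.8 CPM) and 6-3-A6 2 (46.3 CPM) lay below the highest input library (76.6 CPM). Of all genes tested, 5.18% had every IP library above every input library, and Apln, Aplnr and Pdgfb were among them.

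**Figure D1:**
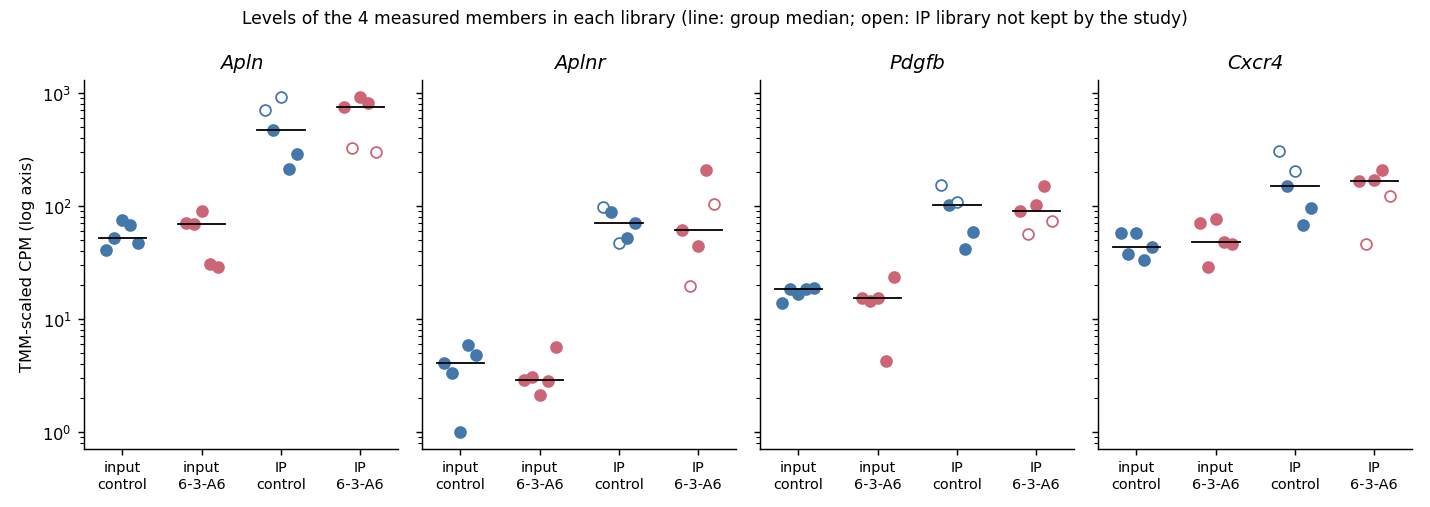
TMM-scaled CPM on a log axis for each of the 4 measured genes in the 20 libraries (5 per group), with the group median as a line and IP libraries that the study did not keep as open points. IP points lie above all input points for Apln, Aplnr and Pdgfb, and the Cxcr4 fractions overlap.

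Levels of different genes can be compared only per length, here as CPM per kb of the counted span. In control IgG IP libraries (n = 5) the mean was 53.2 ± 30.4 (SD) for Apln, 39.9 ± 22.7 for Cxcr4, 19.2 ± 5.96 for Aplnr and 4.84 ± 2.32 for Pdgfb. Apln overlapped Cxcr4 in its range over libraries, and Cxcr4 overlapped Aplnr. Pdgfb, at most 8.06, lay below the lowest Aplnr value of 12.7 there, whereas in 6-3-A6 IP libraries Pdgfb (2.96 to 7.79) and Aplnr (5.33 to 55.7) overlapped. In control IgG input Cxcr4 led with 11.1 ± 2.69 CPM per kb, and Apln followed with 5.79 ± 1.45. Per kb of exon (GENCODE M21) the order of the lowest pair changed in control IgG IP, to 22.2 ± 10.7 for Pdgfb and 19.2 ± 5.96 for Aplnr. It did not change in 6-3-A6 IP, at 22.6 ± 8.41 for Pdgfb and 23.5 ± 19.8 for Aplnr. In input it changed in both groups. Per kb of span Pdgfb and Aplnr had means of 0.896 and 1.03 in control IgG input and 0.762 and 0.890 in 6-3-A6 input. Per kb of exon these were 4.11 and 1.03, and 3.50 and 0.890. Per kb of exon their ranges were apart in control IgG input (3.29 to 4.49 against 0.270 to 1.60) and overlapped in 6-3-A6 input.

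Enrichment in the endothelial fraction was graded among the members. Aplnr rose 20.8-fold in IP over input (log2 fold change 4.38 ± 0.37 SE, 95% interval 3.62 to 5.14, edgeR adjusted p = 4.17e-09) and Apln 9.45-fold (3.24 ± 0.29, 2.63 to 3.85, adjusted p = 1.23e-08). Pdgfb rose 5.63-fold (2.49 ± 0.25, 1.98 to 3.01, adjusted p = 5.59e-08) and Cxcr4 2.89-fold (1.53 ± 0.27, 0.97 to 2.10, adjusted p = 1.37e-04). All 4 measured members were called higher, where 19.8% of the 13582 genes tested were called higher and 41.2% were called in either direction. The rise was present in 10 of 10 tumors for each of the 4 genes. With the tumor as a block the log2 differences were 4.23 for Aplnr, 3.15 for Apln, 2.42 for Pdgfb and 1.42 for Cxcr4.

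The endothelial markers served as a yardstick for this enrichment. Tumor by tumor, the IP over input difference of Aplnr was above the mean of the 16 markers in 5 tumors and below it in 5, with a median gap of -0.01 on the log2 scale. Apln fell short of the marker mean in 10 of 10 tumors (median gap -1.06), as did Pdgfb (-1.89) and Cxcr4 (-2.69). When libraries were scaled to the markers, an alternative added after the data had been seen, the log2 difference was 0.13 (95% interval -0.63 to 0.89, adjusted p = 0.734) for Aplnr and -1.02 (-1.64 to -0.40, adjusted p = 0.00206) for Apln. On that scale it was -1.67 (adjusted p = 3.00e-06) for Pdgfb and -2.78 (adjusted p = 1.56e-10) for Cxcr4. This scaling sets the markers level, so that its coefficient is the enrichment relative to them and not the abundance in the fraction. The Aplnr interval includes an enrichment equal to that of the markers, and Apln, Pdgfb and Cxcr4 were enriched less than the mean of the markers. Single markers ranged from 1.49 (Podxl) to 5.11 (Clec14a), and all 4 members lay inside that range.

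**Figure D2:**
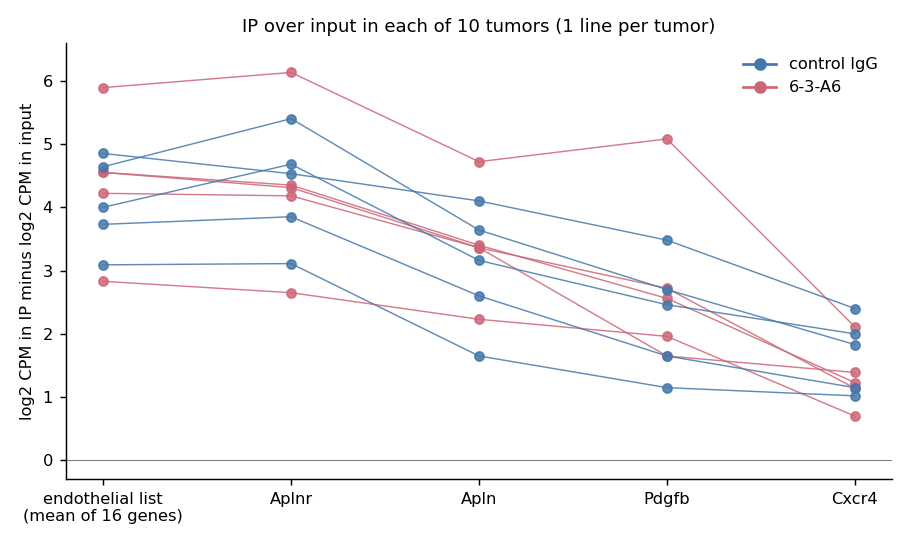
Difference of log2 CPM between IP and input for the mean of 16 endothelial markers and the 4 measured genes, with 1 line per tumor. Aplnr lies around the marker mean, and Apln, Pdgfb and Cxcr4 lie below it in all 10 tumors.

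Other genes of the apelin axis were mixed. Counts of called genes in this and the following lists are to be read against the 19.8% of all genes tested that were called higher in IP and the 21.4% called lower. Apela, the gene of the second apelin receptor ligand, had 0 counts in every library, and 97.3% of its span is overlapped by another gene, so that no level was read. Of 9 axis genes 7 were tested, of which 4 were higher and 1 lower in IP, with a median log2 difference of 0.38 against -0.05 over all genes tested. Gnai1, an inhibitory G protein alpha subunit, rose by 3.12 ± 0.27 (adjusted p = 8.33e-09), and the beta-arrestin gene Arrb1 by 1.65 ± 0.24 (adjusted p = 1.70e-05). Gnai3 rose by 0.38 ± 0.13 (adjusted p = 0.0242). Mme, the neprilysin peptidase that can cleave apelin, fell by 0.97 ± 0.24 on the log2 scale (adjusted p = 0.00323).

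Partners of Pdgfb and Cxcr4 were called in both directions. Of the 5 genes of the PDGF family, 1 was higher and 3 were lower in IP, where 19.8% and 21.4% of all genes were, with a median of -0.65. Pdgfd, another PDGF ligand, rose by 1.21 ± 0.21 (adjusted p = 1.42e-04), and Pdgfa (-0.67), Pdgfc (-0.70) and the receptor gene Pdgfra (-0.65) fell. Pdgfrb, the pericyte receptor of PDGF-B, differed by -0.30 (95% interval -0.83 to 0.23, adjusted p = 0.361). Of the 4 genes of the CXCR4 axis, the chemokine gene Cxcl12 (-0.48, adjusted p = 0.0110) and Mif (-0.65, adjusted p = 0.0152) were lower. Ackr3, a scavenging receptor of Cxcl12, was higher (0.46, adjusted p = 0.0357), and the median was -0.56.

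Most of the other tip cell genes were called higher in IP, where 19.8% of all genes were. Of 18 genes 3 had no counts, namely Angpt2, Kcne3 and Adm, each wholly within another gene, and of the 15 tested 13 were higher in IP and 0 lower, with a median of 2.76. The strongest were Igfbp3 (4.55 ± 0.39, adjusted p = 5.23e-09), an insulin-like growth factor binding protein, and Cd34 (4.26 ± 0.31, adjusted p = 5.65e-10), a sialomucin of endothelium. The smallest called differences were those of Lamb1 (0.55, adjusted p = 0.00654), a laminin chain, and the netrin receptor gene Unc5b (1.48, adjusted p = 1.76e-05). Of 8 stalk cell genes 7 were tested and 4 were higher, Robo4 (4.75), Tek (3.95), Flt1 (3.23) and the Notch target Hey1 (3.13), with a median of 3.13.

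Markers of other cell types were called lower in IP in varying shares, where 21.4% of all genes tested were called lower. In IP 8 of 12 macrophage markers, 4 of 10 fibroblast markers, 2 of 6 epithelial markers, 3 of 5 lymphoid markers, 1 of 5 neutrophil markers and 1 of 4 platelet markers were lower, and 0 of these lists had a gene called higher. The neutrophil and platelet counts are near the share over all genes. Of 6 mural markers 1 was higher, Kcnj8 (3.78 ± 0.46, adjusted p = 1.24e-06), and the mural median was -0.08.

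Within the 10 IP libraries, 3 of the 4 measured members followed the endothelial content. Of all genes tested 4.04% were called for this slope, and 3.66% were called with a positive slope. Content was expressed as a score, the mean log2 CPM of the endothelial markers minus that of the macrophage, fibroblast and epithelial markers, and the score held no member. It ranged from -0.98 to 2.11 under control IgG and from -0.69 to 1.92 under 6-3-A6. Per unit of the score and with treatment as a term, Apln rose by 0.64 ± 0.09 (SE) on the log2 scale (95% interval 0.44 to 0.84, edgeR adjusted p = 0.00337) and Cxcr4 by 0.66 ± 0.11 (0.41 to 0.91, adjusted p = 0.00817). Pdgfb rose by 0.46 ± 0.11 (0.23 to 0.69, adjusted p = 0.0329), and it was no longer called when control IgG 4 or 5 or 6-3-A6 2, 3 or 4 was left out, at slopes of 0.40 to 0.51 and adjusted p between 0.0510 and 0.102. Cxcr4 lost its call without 6-3-A6 2 (0.58, adjusted p = 0.0661), and the number of genes called then fell from 549 to 168.

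Aplnr did not pass this test. Its slope was 0.33 ± 0.26 (95% interval -0.23 to 0.89, adjusted p = 0.529), an interval that overlaps those of the other members, and a difference between the slopes was not tested. It was 0.04 without 6-3-A6 2, 0.10 without 6-3-A6 4 and 0.58 without control IgG 3. Of 13602 genes 4.04% were called, and 3.66% were called with a positive slope. The IP libraries of control IgG 3 and 6-3-A6 3, with scores of 2.11 and 1.83, held 46.9 and 44.2 CPM of Aplnr, whereas 6-3-A6 4, with a score of 1.92, held 206 CPM. Of the 15 other tip cell genes tested 6 had a called positive slope, of the 7 stalk cell genes 3 and of the 16 endothelial markers, which are part of the score, 12. The tip cell median was 0.51 against -0.02 over all genes tested.

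**Figure D3:**
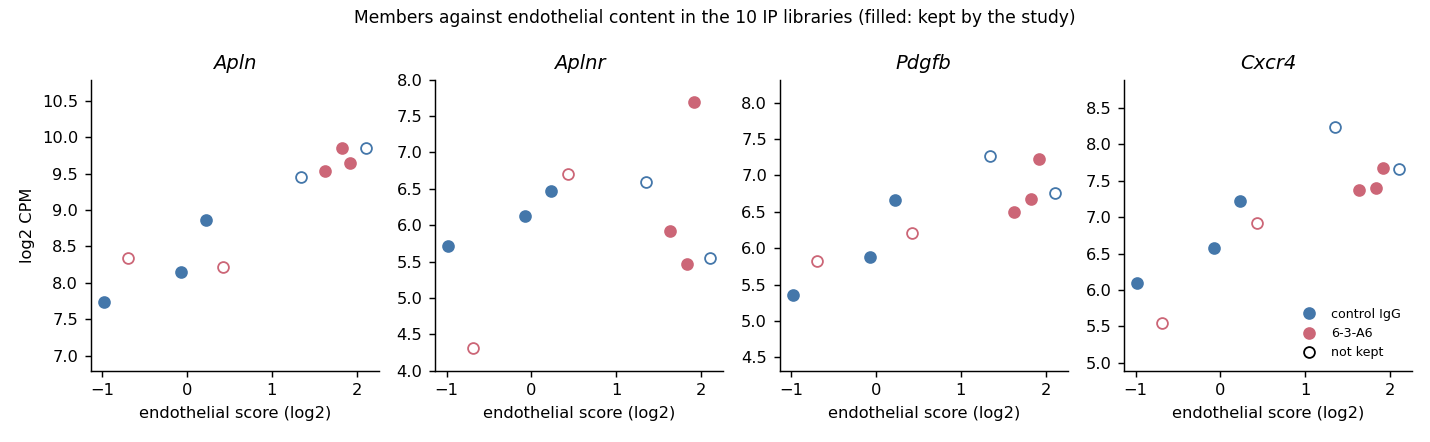
Log2 CPM of each measured gene against the endothelial score (log2 scale) in the 10 IP libraries, colored by treatment and filled where the study kept the library. The kept 6-3-A6 libraries lie at scores of 1.63 to 1.92 and the kept control IgG libraries at -0.98 to 0.23.

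Expressed relative to the endothelial markers, the IP levels of Apln and Cxcr4 were tighter. The SD of log2 CPM over the 10 IP libraries was 0.80 for Apln and 0.48 after the mean of the markers had been subtracted, and 0.81 and 0.23 for Cxcr4. For Pdgfb it was 0.61 and 0.42, and for Aplnr 0.90 and 0.82. Within treatment groups the SD of these 2 genes did not always narrow. For Aplnr it went from 0.46 to 0.89 in control IgG IP and from 1.27 to 0.82 in 6-3-A6 IP. For Pdgfb it went from 0.76 to 0.25 and from 0.52 to 0.58 in the same order. Relative to the markers, Cxcr4 lay between 0.04 and 0.54 in control IgG IP and between -0.15 and 0.16 in 6-3-A6 IP. With the endothelial score in the fit of all 10 IP libraries, the Cxcr4 difference was -0.54 (95% interval -1.03 to -0.05, edgeR adjusted p = 1.00), which was not called.

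Genes with profiles most like those of the members over the 10 IP libraries were sought among 13601 others by Pearson r of log2 CPM, as a description. For Apln they were Kcnq1 (r = 0.992), Gm9917 (0.992) and Bean1 (0.988). For Aplnr they were Il27ra (0.952), Tmem255b (0.936) and Gask1b (0.915), and for Pdgfb F2rl3 (0.972), 9230102K24Rik (0.963) and Cavin1 (0.959). For Cxcr4 they were Mgat1 (0.979), Cers4 (0.978) and Chst7 (0.977). Among the members themselves Pdgfb and Cxcr4 were most alike (r = 0.91), Apln followed Pdgfb (0.85) and Cxcr4 (0.80), and Apln and Aplnr were least alike (0.20). These libraries share the endothelial content described above, and 10 points enter each r.

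Treatment was first compared over the 6 IP libraries that the study kept. These were chosen on their own expression values, and the study describes the groups as better separated after the others had been removed. Such a choice can favor a treatment difference, which the p-values and shares of called genes of this comparison do not take into account. Apln was higher in each of the 3 kept 6-3-A6 libraries (746, 925 and 804 CPM) than in each of the 3 kept control IgG libraries (464, 212 and 285 CPM). The difference was 2.52-fold (log2 fold change 1.33 ± 0.29 SE, 95% interval 0.70 to 1.97, edgeR adjusted p = 0.0303). It was the 1 member called of 4, where 4.61% of 13999 genes were called and 2.57% were called higher. Endothelial content of these IP libraries moved with treatment, as the score averaged -0.27 ± 0.63 (SD, n = 3) in control IgG and 1.80 ± 0.15 in 6-3-A6. In the input of the same tumors the groups overlapped. The input score was -3.78, -4.12 and -4.13 in control IgG 2, 4 and 5 and -3.62, -3.64 and -4.56 in 6-3-A6 1, 3 and 4. With the score in the fit, the Apln difference was -0.27 (95% interval -1.67 to 1.13, adjusted p = 0.963) and 0 genes were called, though this fit leaves a wide interval. With libraries scaled to the endothelial markers it was 0.23 (-0.80 to 1.27, adjusted p = 0.677). Apln was called with DESeq2 (1.34, Wald test adjusted p = 1.43e-04) and without the filter on low counts (1.35, edgeR adjusted p = 4.36e-05). Neither of these fits takes the score into account. With 1 of the 6 libraries left out in turn, Apln was called only without control IgG 2. The other 5 fits gave log2 differences of 1.14 to 1.39 and edgeR adjusted p between 0.0605 and 0.116.

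The other members were not called in the kept libraries. Cxcr4 differed by 0.75 (95% interval 0.16 to 1.34, edgeR adjusted p = 0.149) and Pdgfb by 0.73 (0.05 to 1.41, adjusted p = 0.223). Both were called without the filter on low counts, at adjusted p of 0.0305 and 0.0312, and both were called without control IgG 2. Aplnr differed by 0.51 (-0.53 to 1.55, adjusted p = 0.610), and without 6-3-A6 4, the library with 206 CPM, its difference was -0.44. With the endothelial score in the fit, or scaled to the markers, the differences of Aplnr, Pdgfb and Cxcr4 all took a negative sign and none was called.

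Related genes in the kept libraries were called 1 at a time, where 4.61% of all genes tested were called and 2.57% were called higher. Of the other tip cell genes 1 of 15 was called, Trp53i11 (1.91 ± 0.36, adjusted p = 0.0204), and the median was 0.42 against -0.05 over all genes tested. Of the stalk cell genes 1 of 7 was called, Hey1 (1.55 ± 0.22, adjusted p = 0.0168), and of the apelin axis 1 of 7, Arrb1 (1.08 ± 0.23, adjusted p = 0.0286). None of the PDGF family or the CXCR4 axis was called, with Pdgfrb at -1.20 (adjusted p = 0.0683), Pdgfra at -0.71 (0.185), Cxcl12 at 0.04 (0.954) and Ackr3 at 0.43 (0.268).

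Markers of cell types moved in the same 6 libraries, where 2.57% of all genes tested were called higher and 2.04% were called lower. Of 16 endothelial markers 8 were higher and 0 lower, with a median of 1.03, from Sox7 (1.10) to Cldn5 (1.99) among those called. Of 12 macrophage markers 7 were lower, with a median of -0.95, and their summed level was 7143 to 8232 CPM in the kept control IgG libraries and 3683 to 4174 CPM in the kept 6-3-A6 libraries. The summed endothelial level was 1579 to 4782 CPM and 4526 to 5825 CPM in the same order. Of the fibroblast markers 2 of 10 were lower (Col1a2 and Dcn), of the epithelial markers 2 of 6 (Epcam and Cdh1), and of the mural markers Kcnj8 was higher (2.20) and Cspg4 lower (-2.21). Of the lymphoid, neutrophil and platelet markers 0 were called. Apart from Ecscr and Itgam, which had no counts, every endothelial and macrophage marker had counts, and the part of these shifts in the member differences was not tested beyond the fits given above.

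Over all 10 IP libraries no member differed beyond the spread between tumors. The log2 difference was 0.25 (95% interval -0.66 to 1.16) for Apln, 0.27 (-0.78 to 1.31) for Aplnr, 0.01 (-0.71 to 0.74) for Pdgfb and -0.22 (-1.13 to 0.69) for Cxcr4, each at an edgeR adjusted p of 1.00. Group means of Apln were 517 ± 295 CPM (SD, n = 5) in control IgG and 619 ± 289 CPM in 6-3-A6. In this comparison 0 genes were called by edgeR, a background of 0%, with 292 at an unadjusted p under 0.05, and 0 by DESeq2, with 359. Mean endothelial scores were 0.53 ± 1.21 in control IgG and 1.03 ± 1.13 in 6-3-A6. The 6 kept libraries are part of these 10, so that the 2 comparisons share samples. The excluded control IgG libraries 1 and 3 held 700 and 924 CPM of Apln and the excluded 6-3-A6 libraries 2 and 5 held 323 and 298 CPM, on opposite sides of the kept libraries of their groups.

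In input the log2 difference was 0.05 (-0.61 to 0.70) for Apln, -0.20 (-1.10 to 0.69) for Aplnr, -0.23 (-0.91 to 0.45) for Pdgfb and 0.26 (-0.32 to 0.83) for Cxcr4, each at an edgeR adjusted p of 1.00. The Pdgfb difference in input was -0.01 without 6-3-A6 4, the library with 4.28 CPM, and -0.46 without 6-3-A6 5, the library with 23.4 CPM. In input too, 0 genes were called by edgeR (0%), with 180 at an unadjusted p under 0.05, and 0 by DESeq2, with 220. The interaction of treatment and fraction, which asks whether enrichment differed with treatment, was 0.21 (-0.93 to 1.36) for Apln, 0.48 (-0.90 to 1.86) for Aplnr, 0.24 (-0.76 to 1.24) for Pdgfb and -0.48 (-1.58 to 0.62) for Cxcr4. It called 0 of 14488 genes with edgeR (0%), with 125 at an unadjusted p under 0.05, and 0 with DESeq2, with 162. Input and IP of a tumor are paired, which these fits ignore. With the tumor as a block the interaction was 0.35 (-0.63 to 1.32) for Apln and 0.03 (-1.07 to 1.14) for Aplnr. For Pdgfb it was 0.40 (-0.78 to 1.57) and for Cxcr4 -0.39 (-0.99 to 0.20), and 0 genes were called. The intervals still allow differences of more than 2-fold for Aplnr in every one of these comparisons. Of the lists, 0 genes were called in these 3 comparisons, and the median of the other tip cell genes was -0.21 in IP, -0.32 in input and 0.15 for the interaction.

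**Figure D4:**
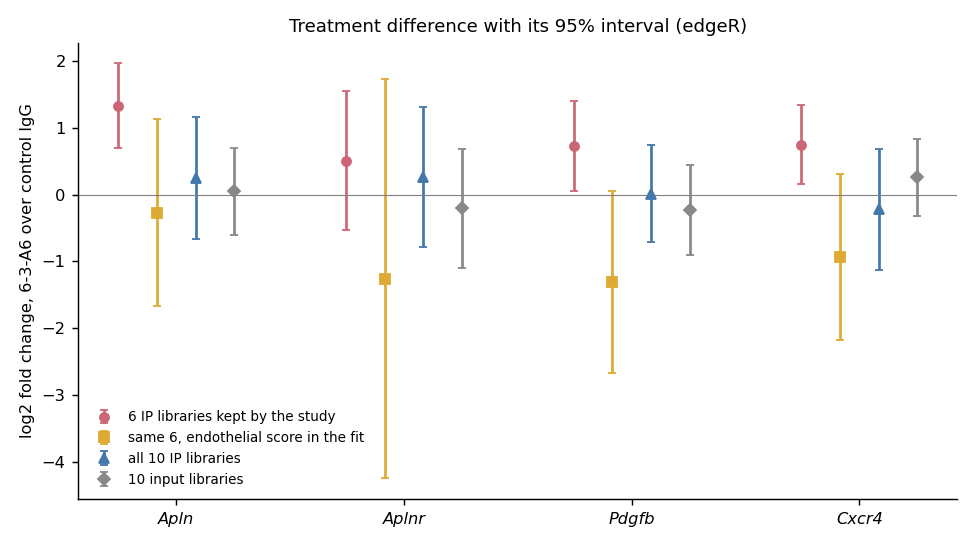
Log2 fold change of 6-3-A6 over control IgG with its 95% interval for the 4 measured genes, in 4 fits. In the 6 kept IP libraries Apln lies at 1.33, and in the other 3 fits the interval of each gene includes 0.

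The balance of ligand and receptor varied between tumors within both treatment groups. The difference of log2 CPM between Apln and Aplnr in IP was 2.85, 2.38, 4.30, 2.02 and 2.02 in control IgG tumors 1 to 5 and 3.62, 4.03, 4.38, 1.96 and 1.52 in 6-3-A6 tumors 1 to 5. In input it was 3.28, 3.91, 6.06, 3.48 and 3.27 under control IgG and 4.57, 4.45, 5.33, 3.37 and 2.35 under 6-3-A6. The input values rest on few counts of Aplnr, 12 for the 6.06 of control IgG 3 and 38 for the 5.33 of 6-3-A6 3. The same 4 tumors, control IgG 3 and 6-3-A6 1, 2 and 3, held the highest values in both fractions, 3.62 to 4.38 in IP and 4.45 to 6.06 in input, against 1.52 to 2.85 and 2.35 to 3.91 in the other 6 tumors. Hbb-bs, a beta-globin gene of red blood cells named after its values had been seen, was at 322 to 655 CPM in the input of these 4 tumors and at 22.2 to 71.0 CPM in the others. Its part in the ratio was not tested. Group means in IP were 2.71 ± 0.95 (SD, n = 5) in control IgG and 3.10 ± 1.28 in 6-3-A6.

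**Figure D5:**
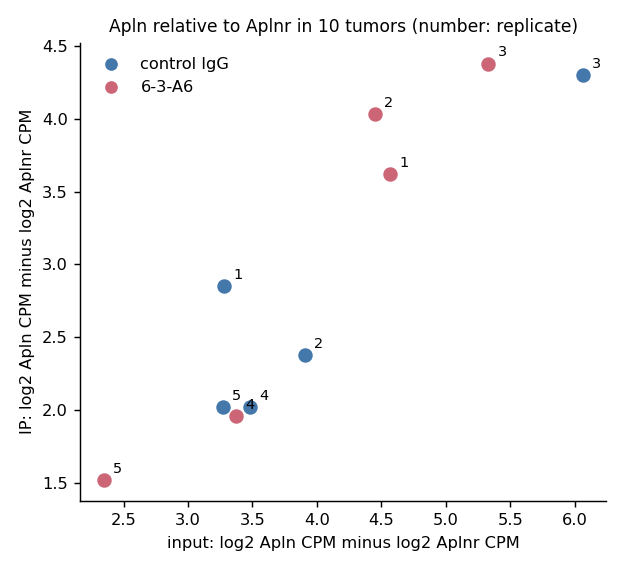
Difference of log2 CPM between Apln and Aplnr in IP against the same difference in input, 1 point per tumor with its replicate number. Control IgG 3 and 6-3-A6 1, 2 and 3 lie at the upper right, at 3.62 or more in IP and 4.45 or more in input. The input value of control IgG 3 rests on 12 counts of Aplnr.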

How the data were processed

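Raw counts per gene for 20 libraries were used as deposited. Per the methods and the submitters' notes, the authors sequenced 100 bp single reads, aligned them with STAR 2.7.4a and counted them with featureCounts (2.0.1, with 1.5.2 also listed) over spans that the table places on GRCm39, whereas the notes name mm10 and GRCh38. The strand setting of the counting is not given in the sources used here. Their DESeq2 result table holds their own fold changes and p-values and was not used. Replicate pairs differed by more than sampling noise (lowest median chi-square 2.23, 0.455 under noise alone).

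Genes were filtered with filterByExpr, scaled by TMM and tested with edgeR 4.0.16 (quasi-likelihood, Benjamini-Hochberg over all genes tested, threshold 0.05) in R 4.3.3, with DESeq2 1.42.0 as an alternative. Log2 CPM used a prior count of 2. The pipeline was tested on simulated counts. Members and lists were chosen with earlier results of these data known. Named genes are the members, their direct partners, the called genes of each list (at most the 2 largest and 2 smallest for the member-related lists, with the marker lists given by counts and selected examples) and the 3 most similar genes per member. Input and IP came from the same tumor, with a correlation of deviations between -0.05 and 0.72. Intervals on counts of 0 were not used for genes nested in others.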

Additional observations from a re-analysis of the deposited data

Results flagged for a closer look

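Among 32 groups of 5 libraries examined, 2 held a value beyond Dixon's 95% critical value, where chance alone flags about 5% of groups. Both came from the input of 6-3-A6 tumor 5. Aplnr was at 5.60 CPM there, with the other 4 libraries of the group at 2.12 to 3.05 CPM. Apln lay 2.02 above the mean log2 CPM of the endothelial markers, with the others at 3.20 to 3.67.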

How the results depend on the processing

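The 4 measured members were called higher in IP under every alternative except scaling to the endothelial list. The count of 5597 called genes was 3347 with the kept tumors only and 13404 when scaled to the endothelial list, where members read -1.02 (Apln), 0.13 (Aplnr), -1.67 (Pdgfb) and -2.78 (Cxcr4). Of these 13404 genes 13390 were lower, with a median of -3.97 over all genes tested, as this scaling reads genes relative to the markers. The count was 4753 to 5799 with 1 tumor left out. With the replicate block (tumor) it was 7120, and the block changed no call of a member.

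In the kept libraries 646 called genes became 1251 with DESeq2, 1459 without a filter, 0 with the score as a covariate and 9122 with endothelial scaling. Of these 9122 genes 9109 were lower, with a median of -1.33 over all genes tested, so that they are not read as single treatment differences. Leaving out 1 library gave 9 to 653, namely 9 without 6-3-A6 3, 161 without 6-3-A6 4, 188 without control IgG 4 and 345 without 6-3-A6 1. The covariate gave -0.27 (Apln), -1.26 (Aplnr), -1.31 (Pdgfb) and -0.93 (Cxcr4), and endothelial scaling -0.70, -0.36 and -0.36 for Aplnr, Pdgfb and Cxcr4. Aplnr ranged from -0.44 to 0.88 with 1 library left out. No replicate block could be fitted there, as these groups share 1 number.

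Over all IP libraries, input and the interaction, 0 genes were called under any alternative run, DESeq2 included. Signs near 0 changed with the block (Aplnr -0.07 in IP, Apln -0.05 in input), the covariate (Aplnr -0.02, Pdgfb -0.17 in IP) and endothelial scaling (Aplnr -0.22 in IP). With 1 library left out the differences ranged in IP from 0.06 to 0.55 (Apln), -0.30 to 0.52 (Aplnr), -0.19 to 0.28 (Pdgfb) and -0.40 to 0.13 (Cxcr4). In input they ranged from -0.16 to 0.21 (Apln), -0.48 to 0.01 (Aplnr), -0.46 to -0.01 (Pdgfb) and 0.11 to 0.44 (Cxcr4). For the interaction, with 1 tumor left out, the ranges were -0.05 to 0.45 (Apln), -0.10 to 0.69 (Aplnr), -0.18 to 0.58 (Pdgfb) and -0.64 to -0.23 (Cxcr4). Control IgG and 6-3-A6 share only a number (correlations -0.31 to 0.40).

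The slope called 549 genes, 1072 with DESeq2 and 168 to 620 with 1 library left out, 168 without 6-3-A6 2. The prior count of 0.5 moved no level by more than the spread between tumors. Where a value changed, the cause was not tested. Few counts of Aplnr in input limit its precision.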
